A study of Mus musculus with 9 samples.

Results

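The genes described here are those named for proteins of the cytosolic ribosome. They were chosen by symbol: rows of the count table starting with Rpl or Rps and a digit, plus Rpsa, Rplp0, Rplp1 and Rplp2, without the Rps6k kinases, Rps19bp1, rows named as pseudogenes and rows with under 90 counts summed over the 9 libraries. Of 27999 rows, 113 matched the pattern and 83 were kept, 33 of the small and 50 of the large ribosomal subunit. They lie on 19 chromosomes, and GENCODE M21 lists 82 as protein-coding and 1, Rpl6l, as a processed pseudogene. The last step dropped 3 rows, Rpl3l with 21 counts, Rpl10l with 1 and Rpl39l with 0, while the lowest members kept were Rpl6l with 296 counts and Rps27rt with 3762. All 83 members passed the low-count filter of the test.

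G1E is a line of mouse erythroid progenitors without working Gata1, the master transcription factor of red cell formation. The cells were grown with murine SCF and EPO in every group and infected with virus made from the HMD vector, either empty (empty group), carrying human GATA1 WT (wildtype group) or carrying a human GATA1 mutant whose change the labels do not name (mutant group). Each group had 3 libraries that the series design calls biological replicates, made by Smart-seq2, which copies polyadenylated mRNAs along their whole length without marking the strand. The labels give neither the time after infection nor a selection for infected cells. In such bulk samples, fewer cells of a type and less RNA per cell cannot be told apart. The p-values cover no more than library-to-library spread within this set.

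A ribosome is built from a small subunit, which reads the mRNA, and a large subunit, which joins amino acids. Each protein is needed in about equal number, and their mRNAs are short, very abundant and start with a pyrimidine tract that lets nutrient signalling through mTOR control their translation together. Red cell precursors depend strongly on ribosome supply: loss of 1 copy of several of these genes, and some GATA1 mutations, cause Diamond-Blackfan anemia, a failure of red cell production.

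Totals ranged from 11364358 to 17289307 counts per library, and the table's human GATA1 row held between 598 and 921 CPM (counts scaled to library size) in the 6 libraries given GATA1, against 0, 0.143 and 0 in the empty libraries. That row does not tell the mutant from the wildtype cDNA. The 12 erythroid markers summed to 1760 to 2150 CPM in the empty, 3100 to 3270 in the mutant and 21200 to 28600 in the wildtype libraries, so the groups did not overlap in them. The 5 progenitor markers summed to 1020 to 1260 CPM in the empty, 1010 to 1120 in the mutant and 402 to 508 in the wildtype libraries, and 3 of the 4 tested were called lower with wildtype GATA1 than with the empty vector. The part of either marker set in the members' levels was not tested. Of markers of other cells, 6 macrophage genes summed to 2.01 to 3.86 CPM with 2 of them at 0 in all libraries, and 6 stromal genes to at most 0.135 CPM with 3 at 0. The 6 lymphoid genes summed to 28.2 to 36.5 CPM in the empty, 29.7 to 38.3 in the mutant and 13.7 to 18.4 in the wildtype libraries, with 3 at 0. Mutant libraries 1 and 2 were much closer to each other than any other replicate pair: a chi-square of 2.21 per gene separated them, against at least 15 for the other 8 pairs. That is still above sampling noise, but it does not show whether they came from separate cultures. They were kept as separate libraries, and summed as an alternative.

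Promoter sequence was available for 62 of the 83 members, as a window from 250 bases before to 50 bases after the RefSeq start on GRCm38.p6. The ETS motif CCGGAAG, searched on both strands, bound by the GABP class of housekeeping factors, was in 24 of these windows (38.7%) against 9.12% of 27025 gene windows. A run of at least 8 pyrimidines within 15 bases of the start was in 25 (40.3%, against 11.9%), and the YY1 motif AAGATGG in 9 (14.5%, against 6.48%). The GATA motif AGATAA was in 3 windows (4.84%, against 11.4%) and the TATA motif TATAAA in 6 (9.68%, against 14.2%). The CCAAT box was in 20 (32.3%, against 37.9%) and the E-box CACGTG in 5 (8.06%, against 7.24%). A match here is a run of letters, not a bound site. The 100 bases before the RefSeq start are printed, 5′ to 3′ on the gene's strand and credited to RefSeq. They are given for 4 members that passed the test in a comparison below and hold a motif there. Capitals mark the ETS motif in Rpl41, CCAAT in Rplp0, its reverse complement in Rps27l, and overlapping TATA matches of both strands in Rpl22l1. For Rpl41 and Rpl22l1, GENCODE M21 places the gene start upstream of the RefSeq start. All printed bases of Rpl41 and most of those of Rpl22l1 lie inside the GENCODE gene.
Rpl41, chr10:128549169-128549268, strand -: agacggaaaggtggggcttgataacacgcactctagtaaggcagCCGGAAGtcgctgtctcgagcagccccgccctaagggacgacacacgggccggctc
Rplp0, chr5:115559367-115559466, strand +: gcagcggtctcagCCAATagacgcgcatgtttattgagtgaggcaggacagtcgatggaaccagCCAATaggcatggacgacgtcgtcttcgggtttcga
Rps27l, chr9:66945986-66946085, strand +: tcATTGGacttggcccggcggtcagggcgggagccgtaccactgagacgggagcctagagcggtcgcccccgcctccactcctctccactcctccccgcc
Rpl22l1, chr3:28805408-28805507, strand +: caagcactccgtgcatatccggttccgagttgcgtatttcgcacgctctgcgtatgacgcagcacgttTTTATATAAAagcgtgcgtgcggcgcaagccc

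Members took a slightly larger mean share of counts in the wildtype group, but the libraries of the 3 groups overlapped. In the empty libraries the 83 members together held 7.73%, 6.54% and 7.56% of counts, a mean of 7.28% ± 0.642 (SD, n = 3). In the mutant libraries they held 7.97%, 7.99% and 6.74%, a mean of 7.56% ± 0.716 (SD, n = 3). In the wildtype libraries they held 8.40%, 10.3% and 7.08%, a mean of 8.60% ± 1.64 (SD, n = 3). Wildtype library 2 was the highest of the 9, while wildtype library 3 lay below all but 2 of the other libraries, so the spread inside the wildtype group was wider than the distance between group means. Both subunits moved alike: large-subunit counts were 1.16 to 1.26 times the small-subunit counts in every library.

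**Figure D1:**
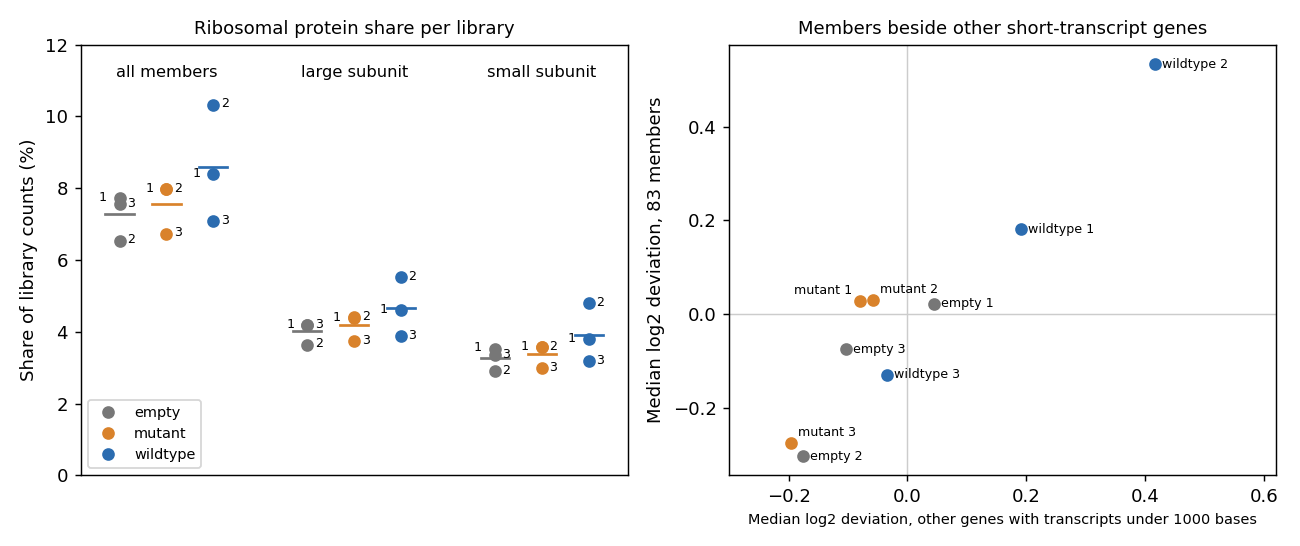
Left, the share of library counts (percent) held by all 83 members and by each subunit, 1 point per library with its replicate number and a line at the group mean; the wildtype points span 7.08% to 10.3% and overlap the other groups. Right, the median log2 deviation of the members from their means over 9 libraries (vertical) against the same for 868 other tested genes with transcripts under 1000 bases (horizontal); wildtype library 2 is highest on both axes.

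The members rose and fell as a block from library to library. After group means were removed, each member's deviations over the 9 libraries had a median correlation of 0.97 with the median of the other members, and 82 of 83 members reached 0.5. These points share library, depth and transcript length. The SD of a member within groups had a median of 0.26 on the log2 scale, and 0.09 once each library's member median was subtracted, so most of the replicate spread of a ribosomal protein gene was spread of the whole set. Rps27rt, a copy of Rps27, was the exception with a correlation of 0.02. The least variable members were Rpl4 (within-group SD 0.09), a large-subunit protein of the peptide exit tunnel, Rpl7l1 (0.12) and Rps4x (0.13), the X-linked form of a small-subunit protein. The most variable were Rps27rt (0.46), Rpl35 (0.40) and Rpl36 (0.38).

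**Figure D2:**
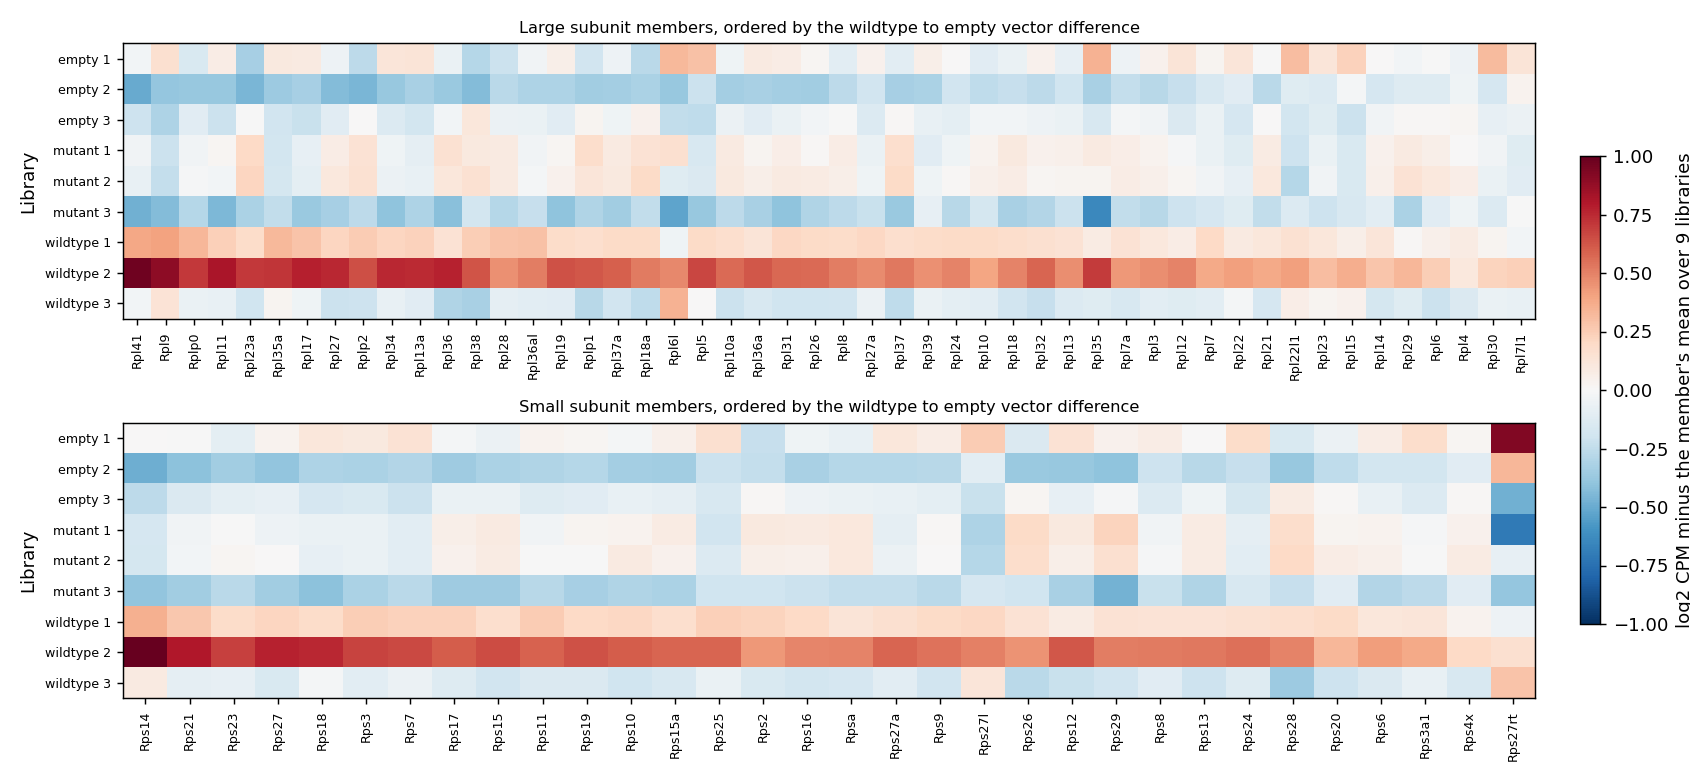
Each cell is the log2 CPM of a member (columns, by subunit, with 1 member left out) in a library (rows) minus that member's mean over 9 libraries, from blue (lower) to red (higher). Whole rows share a colour: wildtype library 2 is red across nearly all members, and empty library 2 and mutant library 3 are blue.

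Outside mutant libraries 1 and 2, other genes with short transcripts deviated to the same side as the members, and genes with long transcripts to the other side. The members' median transcript length was 681 bases and their median GC content 51.6%. Their median log2 deviation was 0.18, 0.53 and -0.13 in wildtype libraries 1 to 3, where the 868 other tested genes under 1000 bases stood at 0.19, 0.42 and -0.03, and 2561 genes over 4000 bases at -0.16, -0.29 and 0.08. In empty libraries 1 to 3 the members stood at 0.02, -0.30 and -0.08, the short genes at 0.04, -0.18 and -0.10, and the long genes at -0.04, 0.12 and 0.05. In mutant libraries 1 to 3 the members stood at 0.03, 0.03 and -0.28, the short genes at -0.08, -0.06 and -0.20, and the long genes at 0.04, 0.02 and 0.18. Wildtype library 2, highest for the members, was thus also highest for other short genes and lowest for long ones. The mitochondrially encoded share was 1.23% in wildtype library 3 and 0.890% in mutant library 3, against 0.313% to 0.601% in the other 7 libraries; its part in the members' levels was not tested.

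Per kilobase of transcript, Rps14 was the most abundant member at 4831 CPM per kb over all libraries, and Rpl8 was among the 3 highest at 3565. Rps14 is a small-subunit protein and Rpl8 a large-subunit one. The lowest were Rpl6l at 2.73, Rpl23a at 74.1 and Rps27rt at 81.1 CPM per kb. Rpl6l and Rps27rt are extra copies of Rpl6 and Rps27, and many ribosomal protein genes have near-identical processed copies; how reads matching several places were counted is not stated in the labels, so the levels of these low rows are uncertain. The 16 rows named as pseudogenes of members held 0.174% as many counts as the members.

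The wildtype comparison with the empty vector asks what restoring GATA1 did in these cells. Fitted fold changes of the members leaned upward with wildtype GATA1, but few passed the test: 82 of 83 had a log2 fold change above 0, with a median of 0.32 (1.24-fold) against -0.04 over all 9978 genes tested. By edgeR's quasi-likelihood test with Benjamini-Hochberg adjustment over all tested genes, 5 members passed an adjusted p of 0.05 as higher (6.02% of members, where 11.4% of all genes tested were called higher) and 0 as lower (11.9% of all genes). The edgeR share of members called was below the background share. At an unadjusted p under 0.05 there were 26 members (31.3%, against 36.5% of all genes), and DESeq2 called 12 higher (14.5%, against 13.9% of all genes) and 0 lower (12.1% of all genes). Only 3 members, Rps14, Rplp0 and Rps23, had wildtype libraries all above the empty ones (3.61%, against 15.3% of all genes).

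Rps14, whose human counterpart lies in the region lost in a myelodysplastic syndrome with failing red cell production, showed the largest difference. It lies on chromosome 18 (60747098 to 60778546, plus strand). Its levels were 2739, 1949 and 2278 CPM in the empty libraries and 3493, 5655 and 2907 CPM in the wildtype libraries. All wildtype libraries were above all empty ones. The log2 fold change was 0.79 ± 0.21 (SE), with an edgeR adjusted p of 0.0166. The mutant libraries, at 2436, 2421 and 2083 CPM, lay within the empty range.

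Rpl41, which encodes a very short basic large-subunit peptide (chromosome 10, 128548114 to 128549305, minus strand), stood at 1357, 977 and 1194 CPM in the empty and 1807, 2711 and 1356 CPM in the wildtype libraries. Wildtype library 3 fell just under empty library 1. The log2 fold change was 0.74 ± 0.22 (SE; edgeR adjusted p = 0.029). Rpl9, a large-subunit protein (chromosome 5, 65388364 to 65391444, minus strand), stood at 1075, 735 and 776 CPM in the empty and 1270, 1786 and 1060 CPM in the wildtype libraries, a log2 fold change of 0.67 ± 0.19 (SE; edgeR adjusted p = 0.0223). Its groups overlapped by the same pair of libraries.

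Rplp0, the base protein of the stalk that recruits translation factors to the large subunit, lies on chromosome 5 (115559467 to 115563727, plus strand). It stood at 1536, 1314 and 1580 CPM in the empty and 2154, 2788 and 1631 CPM in the wildtype libraries, with no overlap (log2 fold change 0.57 ± 0.17, SE; edgeR adjusted p = 0.0302). Its CCAAT-bearing promoter is the second of the sequences printed above. Of the 4 stalk genes, 1 was called higher and 0 lower (11.4% and 11.9% of all genes), with a median of 0.44. The others, Rplp1 at 0.38, Rplp2 at 0.49 and Rpl12 at 0.25, did not pass.

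Rpl35a, a Diamond-Blackfan anemia gene of the large subunit (chromosome 16, 33056453 to 33060189, plus strand), stood at 625, 453 and 510 CPM in the empty and 731, 958 and 596 CPM in the wildtype libraries, with wildtype library 3 under empty library 1. Its log2 fold change was 0.52 ± 0.17 (SE; edgeR adjusted p = 0.0371). It was the single call among 17 members whose human counterparts are mutated in that anemia. Among the 17, 1 was higher and 0 lower (11.4% and 11.9% of all genes). All 17 had a fold change above 0, and their median was 0.35. Within that list Rpl11 had the largest log2 fold change, 0.54, and Rpl15 and Rps28 the smallest, 0.16 and 0.28, none of them called. Rps19, the gene most often mutated in patients, had 0.39 ± 0.18 (SE; edgeR adjusted p = 0.137).

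These calls rested on few libraries. Without wildtype library 3, 60 members were called higher (16% of all genes were called higher and 16.3% lower). Without wildtype library 2, 0 were called higher (8.43% of all genes), and without empty library 2 also 0 (7.24%). Without wildtype library 1 there were 3 (8.45%), and without empty library 3 there were 2 (11%). With offsets for transcript length and GC content fitted per library, the member median was -0.01. There 3 members were higher (16.8% of all genes) and 3 lower (18.8%). The direction of the whole set did not hold under that setting. However, the offsets were fitted over genes that included the members and the other short genes. They also remove any group difference shared by genes of similar length and GC content, so this setting cannot test the direction apart from length. Without offsets, the 868 other short genes had a median of 0.29 and the 2561 long genes -0.17 in the same comparison.

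**Figure D3:**
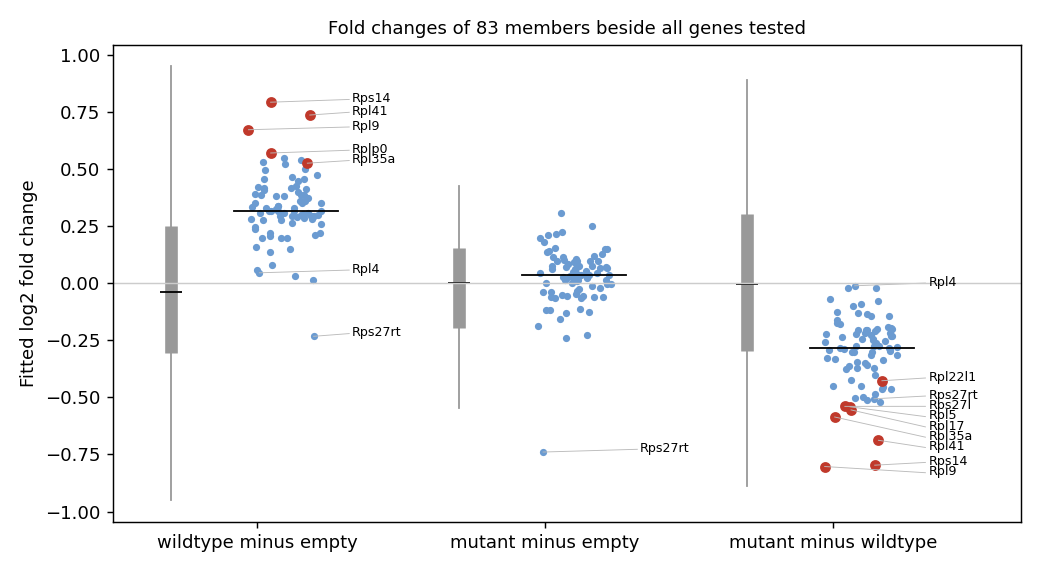
Fitted log2 fold change of each member (points, with a line at their median) in the 3 comparisons, beside all 9978 genes tested (grey: 5th to 95th percentile as a line, 25th to 75th as a bar, black tick at the median). Red points passed an adjusted p of 0.05: 5 in wildtype minus empty, 0 in mutant minus empty and 8 in mutant minus wildtype.

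The mutant comparison with the empty vector asks whether the mutant cDNA moved the same genes. No member passed the edgeR test as higher or lower (background 0.21% and 0.0601% of all genes), and DESeq2 called 0 and 0. The fold changes lay on both sides of 0, with 54 members above and 29 below and a median of 0.04 against 0.00 over all genes. Only Rps27rt had an unadjusted p under 0.05: it stood at 54.7, 36.2 and 20.6 CPM in the empty and 17.6, 27.2 and 22.0 CPM in the mutant libraries, which overlap, and its log2 fold change was -0.74 ± 0.28 (SE; edgeR adjusted p = 0.351). The next smallest p-values belonged to Rps27l (-0.24 ± 0.14, SE), Rpl22l1 (-0.23 ± 0.14), Rpl23a (0.31 ± 0.22) and Rplp2 (0.25 ± 0.20). Of 11 listed second copies of ribosomal proteins (paralogues), 5 were members and were tested. Of these, 4 were below 0, with a median of -0.23. Of the 8 parent genes listed for the 11 copies, 6 were above 0, with a median of 0.03. The parents of the 5 tested copies lay on both sides of 0: Rps27 at 0.01, Rpl22 at -0.06, Rpl7 at -0.02 and Rpl36a at 0.04. The median SE of a member was 0.17 here, so a difference as small as the set's median was not detectable gene by gene. Without empty library 3, Rps27rt passed as lower at -1.03 (edgeR adjusted p = 0.0213), where 6.05% of all genes were called lower, and without empty library 1 it stood at -0.35 (edgeR adjusted p = 0.991).

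The mutant comparison with wildtype GATA1 uses the same wildtype libraries as the first comparison, so it is not independent of it. All 83 members had a fitted fold change below 0, with a median of -0.28 (0.822-fold) against -0.01 over all genes. The edgeR test called 8 members lower (9.64%, where 12.7% of all genes were called lower) and 0 higher (13.2% of all genes), while DESeq2 called 17 lower (20.5%, against 15.2% of all genes) and 0 higher (13.5% of all genes). In 15 members all mutant libraries lay under all wildtype ones (18.1%, against 20.9% of all genes). The edgeR and non-overlap shares were below the background, and the DESeq2 share was above it.

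Rpl9 had the largest difference. Its mutant libraries, at 831, 814 and 714 CPM, were all under its wildtype libraries, at 1270, 1786 and 1060 CPM, a log2 fold change of -0.80 ± 0.19 (SE; edgeR adjusted p = 0.00876). Rps14, at 2436, 2421 and 2083 against 3493, 5655 and 2907 CPM, had -0.80 ± 0.21 (SE; edgeR adjusted p = 0.0156). Rpl35a, at 514, 517 and 491 against 731, 958 and 596 CPM, had -0.59 ± 0.17 (SE; edgeR adjusted p = 0.0216). Rpl41, at 1345, 1313 and 988 against 1807, 2711 and 1356 CPM, had -0.69 ± 0.22 (SE; edgeR adjusted p = 0.0364). None of these 4 overlapped between the groups. Rplp0, called in the first comparison, overlapped here and missed the threshold at -0.46 ± 0.17 (SE; edgeR adjusted p = 0.0635).

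The other 4 called members were not called against the empty vector. Rps27l, a copy of Rps27 known as a target of the Trp53 stress response (chromosome 9, 66946086 to 66949516, plus strand), stood at 362, 368 and 400 CPM in the mutant, 518, 637 and 487 CPM in the wildtype and 534, 416 and 385 CPM in the empty libraries. Its difference between mutant and wildtype was -0.54 ± 0.14 (log2, SE; edgeR adjusted p = 0.0159). Rpl22l1, a copy of the RNA-binding large-subunit protein Rpl22 (chromosome 3, 28805436 to 28807424, plus strand), stood at 110, 104 and 115 CPM in the mutant, 141, 170 and 133 CPM in the wildtype and 157, 117 and 112 CPM in the empty libraries. Its difference was -0.43 ± 0.14 (log2, SE; edgeR adjusted p = 0.0449). For both copies the mean of the empty group lay between those of the others, and empty library 1 lay within the wildtype range.

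Rpl5, a large-subunit protein that with Rpl11 can bind and block Mdm2 when ribosome assembly fails (chromosome 5, 107900502 to 107909005, plus strand), stood at 633, 639 and 545 CPM in the mutant and 807, 1127 and 711 CPM in the wildtype libraries, with no overlap. Its log2 fold change was -0.54 ± 0.18 (SE; edgeR adjusted p = 0.0459). Rpl17, a protein near the exit of the large-subunit tunnel (chromosome 18, 74998558 to 75003381, plus strand), stood at 830, 822 and 681 against 1070, 1505 and 853 CPM, with -0.56 ± 0.19 (SE; edgeR adjusted p = 0.0454). In this comparison 12.7% of all genes were called lower and 13.2% higher. Of the 17 Diamond-Blackfan anemia members, 2 were lower (Rpl5 and Rpl35a) and 0 higher, with a median of -0.33. Of the 5 paralogues, 2 were lower and 0 higher, with a median of -0.43. Of the 8 parent genes listed for all 11 copies, 0 were called, with a median of -0.27. The parents of the 5 tested copies stood at -0.45 (Rps27), -0.28 (Rpl22), -0.26 (Rpl7) and -0.30 (Rpl36a).

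The labels number the replicates without saying that equal numbers belong together. Deviations of same-numbered mutant and wildtype libraries correlated at 0.17, 0.29 and 0.53 over all tested genes. Over the members alone the correlations were -0.04, 0.34 and 0.54. With the replicate number as a block over all 9 libraries, 6 members were lower (10% of all genes), and Rpl22l1 and Rpl17 lost their calls. In a fit of the 6 mutant and wildtype libraries alone with the same block, 47 members were lower and 0 higher (24.5% and 23.6% of all genes). Their median was -0.26, and that fit was chosen after the data were seen. Without wildtype library 3 and without the block, 39 members were lower (15.6% of all genes were called lower and 15.7% higher). The count was 2 without mutant library 1, 2 or 3 (7.71%, 7.71% and 9.86% of all genes), 4 without wildtype library 1 (8.74%), 1 without wildtype library 2 (9.01%) and 5 without empty library 2 (11%). With the length and GC offsets the median turned to 0.04, with 4 members higher (17.6% of all genes) and 3 lower (16.4%), while Rpl22l1 turned to 0.20. Here too the offsets remove any group difference shared by genes of similar length and GC content. Without offsets, the other short genes had a median of -0.32 in this comparison, 33 of 868 higher and 219 lower, and the long genes 0.19. Rpl9 was the only called member that stayed past the threshold in all 18 settings planned for this comparison, with adjusted p from 6.79e-06 to 0.0359.

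**Figure D4:**
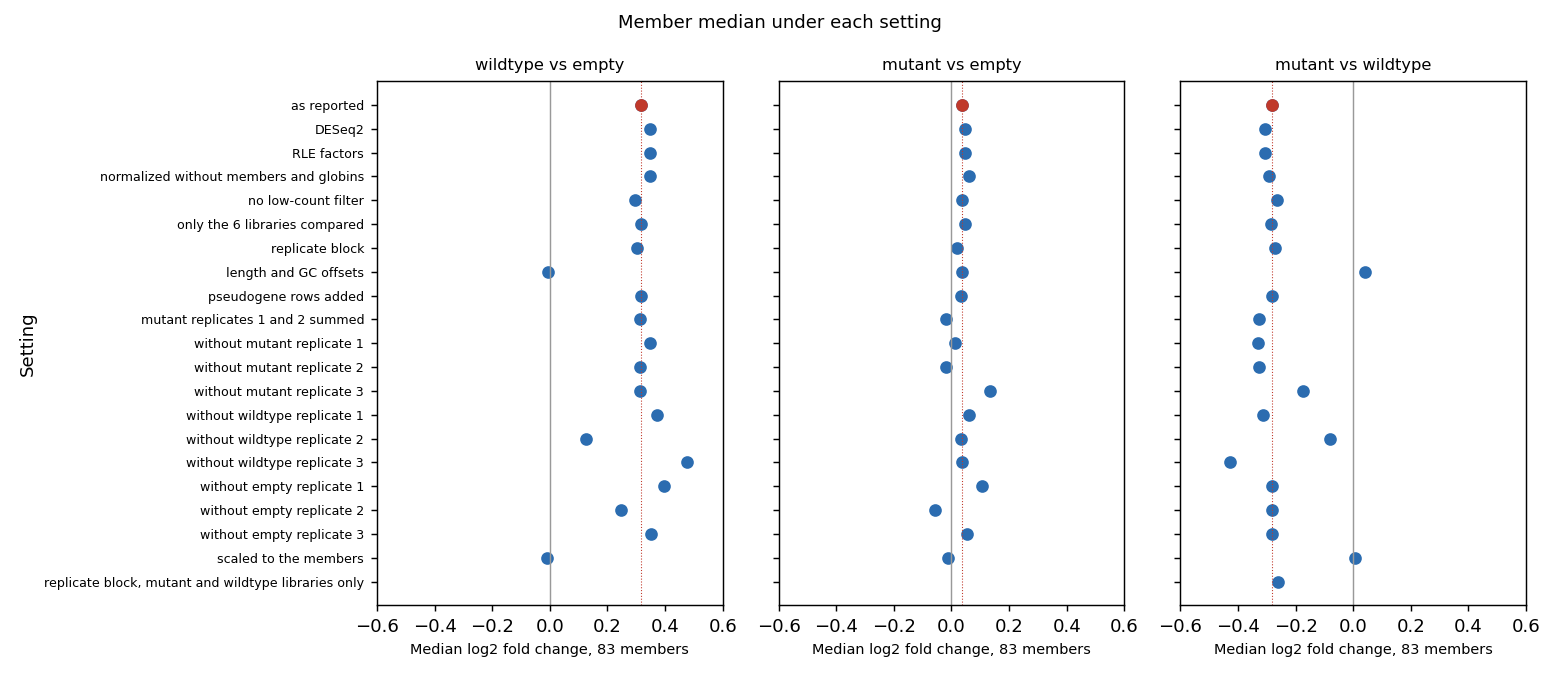
Median log2 fold change of the 83 members (horizontal) in each comparison under each processing setting (rows), with the reported value in red and a dotted line through it. The length and GC offsets and the scaling to the members bring the wildtype comparisons close to 0, and leaving out wildtype library 2 brings them to 0.13 and -0.08.

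To see which members moved apart from the set, libraries were scaled so that their member medians were equal. This shifted the median of all genes by -0.30 in wildtype minus empty, -0.05 in mutant minus empty and 0.25 in mutant minus wildtype. Rps14 was then the single member higher with wildtype GATA1 than with the empty vector, at 0.44 ± 0.11 (log2 fold change, SE; edgeR adjusted p = 0.028; 3.71% of all genes were higher and 10.1% lower). Between mutant and wildtype, 2 members were lower, Rpl9 at -0.50 (edgeR adjusted p = 0.0237) and Rps14 at -0.48 (edgeR adjusted p = 0.0215), where 8.47% of all genes were higher and 3.18% lower. Between mutant and empty 0 were called either way (0.0702% and 0% of all genes). The median SE of a member fell from 0.17 to 0.11. That fall follows from the scaling, which is set from the members' own levels and takes out the spread they share. The adjusted p-values of this fit rest on those smaller SEs. Relative to each library's member median, Rps14, Rps21, Rpl9, Rpl11, Rpl17, Rpl35a, Rpl41 and Rplp0 had all 3 wildtype libraries above all 6 others, 8 of 83 members (9.64%) against 5.2% of all genes tested on the same scale. Subtracting the member median also shifts the other genes between groups, so the 5.2% is not a like background for the members. In the scaled fit Rpl4 and Rpl7l1 had wildtype to empty log2 fold changes of -0.27 and -0.30, not called.

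**Figure D5:**
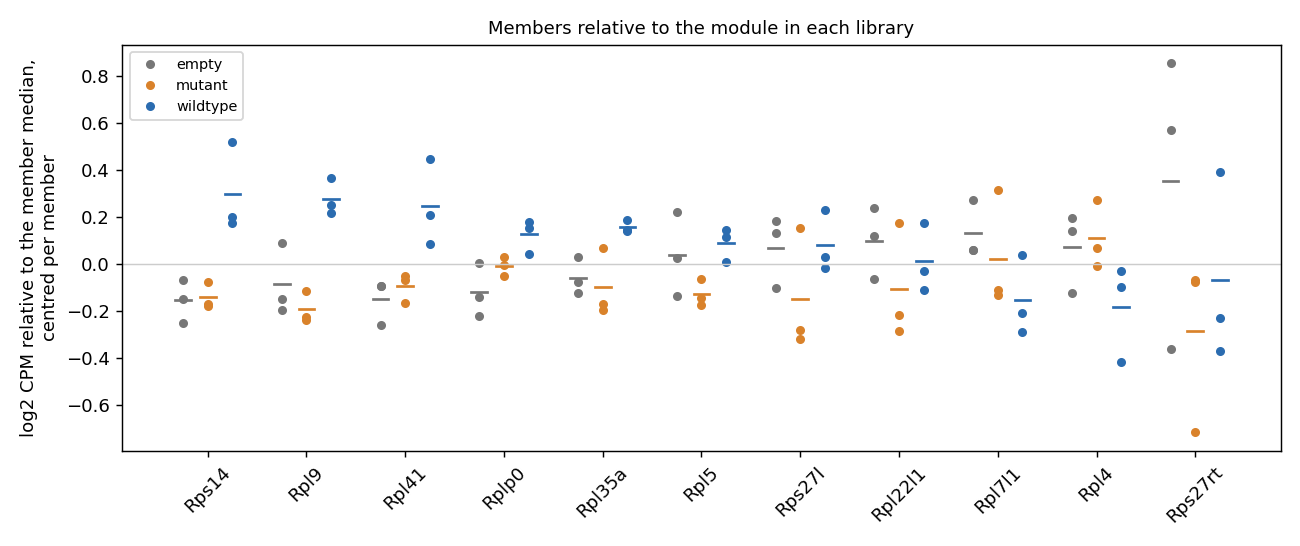
log2 CPM of 11 members in each library relative to that library's member median, centred per member, with lines at group means. For Rps14, Rpl9, Rpl41, Rplp0 and Rpl35a the wildtype points lie above all others, and for Rps27rt the points of the groups mix.

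Of ribosomal proteins whose symbols fall outside the pattern, Fau, which encodes a small-subunit protein fused to a ubiquitin-like one, had a log2 fold change of 0.42 between wildtype and empty and -0.34 between mutant and wildtype, and Gnb2l1, which encodes Rack1 of the small subunit, had 0.37 and -0.33. Neither was called.

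Between wildtype and empty, 11.4% of all genes tested were called higher and 11.9% lower. Of 9 elongation genes tested, 2 were higher with wildtype GATA1 than with the empty vector and 0 lower, with a median of 0.12. The elongation genes called were Eef1d, a nucleotide exchange subunit (0.65, edgeR adjusted p = 0.00623), and Tpt1, a growth-related protein with a pyrimidine-tract mRNA (0.40, edgeR adjusted p = 0.0364). Of 35 initiation factors, 1 was higher (Eif1, which guards start codon choice, 0.44) and 1 lower (Eif4b, a helicase partner, -0.38), with a median of 0.07. Of 13 regulators of ribosomal protein mRNA translation, 1 was higher (Rps6kb2, a kinase of Rps6, 0.48) and 0 lower, with a median of -0.06, and of 8 rescue and turnover genes 0 were called. Of 8 genes of ribosome surveillance, 1 was higher, Bag1 (0.82), a chaperone cofactor, and 0 lower. Trp53 at -0.12 and its target Cdkn1a at -0.10 did not pass.

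Between mutant and wildtype, 13.2% of all genes were called higher and 12.7% lower. There 1 of 9 elongation genes was higher and 3 lower, and 2 of 35 initiation factors were higher and 4 lower. Of 8 surveillance genes, 2 were lower, Bag1 at -0.81 and Tsr2, the chaperone of Rps26, at -0.39. Of the regulators 1 of 13 was higher, Eif4ebp2, a translation repressor (0.55). Between mutant and empty none of these lists had a call (0.21% of all genes were higher and 0.0601% lower). The mitochondrial ribosome is a separate set of proteins. Between wildtype and empty, 16 of its 76 tested genes were higher and 1 lower (11.4% and 11.9% of all genes). Their median was 0.25. Between mutant and wildtype, 22 were lower and 0 higher (12.7% and 13.2% of all genes), with a median of -0.28. These medians were close to those of the cytosolic members, but more of the mitochondrial set was called. Of the 83 cytosolic members, 5 were higher between wildtype and empty, and 8 lower between mutant and wildtype. The difference between the sets was not tested.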

How the data were processed

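Deposited values were whole-number counts per gene; the authors aligned reads with STAR to GRCm38.p4 and hg19, per the submitters' processing notes, while the sources used here do not name the counter, annotation, strand setting or treatment of multi-mapping reads. The count table holds 27999 rows, with 11364358 to 17289307 counts per library. Between replicate libraries the members' chi-square per gene ran from 4.07 to 105, so on average their spread was above sampling noise. This need not hold for the lowest row, Rpl6l, with 296 counts over 9 libraries. Counts were fitted in R 4.3.3 with edgeR 4.0.16 (TMM factors, low-count filter, quasi-likelihood test, all 9 libraries, 6 residual degrees of freedom, Benjamini-Hochberg adjustment over 9978 genes, threshold 0.05). The human GATA1 row stayed in the totals behind the shares of counts, but out of the fit, its library sizes and the test. CPM uses TMM-scaled totals, and log2 CPM a prior count of 2, but CPM of the human GATA1 row uses totals over all rows without TMM factors. SE is the log2 fold change divided by the square root of F. The code was tested on simulated data. Lengths, GC content and coordinates are from GENCODE M21 (shortest principal transcript; Rps20 and Rpl5 have long annotated transcripts). Alternatives were DESeq2 1.42.0, RLE factors, factors without members and globins, no filter, only the libraries compared, a replicate block, length and GC offsets (9656 genes with values), pseudogene rows added, mutant libraries 1 and 2 summed, and each library left out. Replicate numbers of mutant and wildtype libraries correlated at 0.17, 0.29 and 0.53, and those of empty libraries with the others only negatively, so only the former were taken as pairs. This pairing was drawn from these data and is not given by the labels. Scaling to the members and the block on 6 libraries were chosen after seeing the data. Members and gene lists were chosen with earlier results of these data known. Single-gene values of some genes are not reported here. Members were named when called, among the 5 smallest p-values, among the 3 highest or lowest levels per kilobase or within-group SDs, or at the extremes of a list; Rps23, Rplp1, Rps19 and the genes outside the members other than the smallest p-values of their list were chosen after their values were seen.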

Additional observations from a re-analysis of the deposited data

How the results depend on the processing

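Between wildtype and empty, the 5 members called higher became 12 with DESeq2 (13.9% of all genes), 22 with no low-count filter (8.78%), 3 with only the 6 libraries compared (8.96%), 3 with the replicate block in all 9 libraries (9.39%), 3 with length and GC offsets (16.8%; also 3 lower, 18.8%) and 1 when scaled to the members (3.71%), and ranged from 0 to 60 as each library was left out. Between mutant and wildtype, the 8 called lower became 17 with DESeq2 (15.2% of all genes), 19 with no low-count filter (9.83%), 6 with the replicate block in all 9 libraries (10%), 3 with length and GC offsets (16.4%; also 4 higher, 17.6%), 2 with mutant libraries 1 and 2 summed (7.65%), 2 when scaled to the members (3.18%) and 47 with the replicate block on the mutant and wildtype libraries (24.5%), and ranged from 1 to 39 as each library was left out. Between mutant and empty, 1 member, Rps27rt, was lower with no low-count filter (adjusted p = 0.00705; 1.97% of all genes), and 0 to 1 as libraries were left out. The member medians turned to -0.0064 (wildtype minus empty) and 0.0405 (mutant minus wildtype) with length and GC offsets, and to -0.0114 and 0.0062 when scaled to the members, which that scaling sets near 0 by construction. The length and GC offsets, fitted with the members included, also remove differences shared by genes of similar length and GC content. Rpl22l1 turned to 0.15 (mutant minus empty) and 0.20 (mutant minus wildtype) with length and GC offsets, and Rpl23a to -0.10 (mutant minus empty) once pseudogene rows were added. Where not stated, the cause was not tested. Rps14 lost its call in wildtype minus empty without wildtype library 2 or empty library 2, and in mutant minus wildtype without mutant library 3 or wildtype library 2. In the wildtype comparison with empty, adjusted p over the planned settings ran from 1.1e-05 to 0.084 for Rps14, 0.000223 to 0.107 for Rpl9, 6.52e-05 to 0.167 for Rpl41, 0.00193 to 0.138 for Rplp0 and 0.00496 to 0.205 for Rpl35a. Between mutant and wildtype the highest was 0.0575 for Rps14, 0.177 for Rpl41, 0.202 for Rpl5, 0.213 for Rpl22l1, 0.306 for Rpl35a, 0.337 for Rpl17 and 0.707 for Rps27l. The member shares of counts moved by less than the spread between replicates in all 5 settings run for each group. Where a group kept 2 libraries, its spread was pooled with the other groups.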
